A study of Mus musculus with 45 samples.

Results

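The loss of EHMT2 was measured in mouse embryonic stem cells (mESCs) sorted to lie outside the 2-cell-like state. Of the 45 samples of the series, 6 hold this comparison. The paper describes the sorted populations as highly pure. The share of cells in the 2-cell-like state left in these libraries was not measured here. The cells were sorted as negative for a GFP reporter driven by the retrotransposon MERVL, after 72 h with either DMSO, the solvent control, or dTAG, a compound that directs a tagged protein to degradation. There were 3 libraries of RNA sequencing from each of these groups, named DMSO mESC and dTAG mESC here. All 6 came from 1 hybrid strain background labelled BL6/129 and from the cell line labelled EHMT2-dTAG-mcherry-mervl-gfp. In this line the endogenous EHMT2 carries a degron tag with an mCherry marker, so the DMSO libraries share the tag, the marker and the reporter with the dTAG libraries. The GFP-positive cells of the same treatments, called 2-cell-like cells (2CLCs), gave another 3 libraries per treatment and serve here as the point of comparison. The lines were grown from picked clones on feeder fibroblasts with LIF and serum, and each sorted sample held 200000 cells. The labels do not say which clone or culture each library came from, so the p-values measure the spread between these libraries, which may be technical.

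EHMT2, also known as G9a, works with its partner EHMT1 to place mono- and dimethylation on lysine 9 of histone H3, a mark of silent chromatin. In mESC cultures a small fraction of cells passes reversibly through the 2-cell-like state, in which MERVL elements and the genes of the embryo at zygotic genome activation are transcribed. The transcription factor Dux starts this programme and the Zscan4 cluster is one of its best-known targets. A reporter carrying the MERVL promoter marks the cells in that state, and the sort therefore separates them from the GFP-negative majority, which expresses pluripotency factors such as Oct4 (Pou5f1), Nanog and Sox2.

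Sequences from the start sites of 3 genes are given because each stands for a different behaviour described here. Zscan4c was among the 2CLC genes that were higher in dTAG mESCs, Samd7 was higher in dTAG mESCs than in dTAG 2CLCs, and Meioc was lower in dTAG mESCs. The sequences are RefSeq promoter windows of the GRCm38.p6 assembly, 300 bases long on the plus strand, at chr7:11005495-11005794, chr3:30746043-30746342 and chr11:102665335-102665634. Capitals mark CG dinucleotides, the sites of DNA methylation.
Zscan4c: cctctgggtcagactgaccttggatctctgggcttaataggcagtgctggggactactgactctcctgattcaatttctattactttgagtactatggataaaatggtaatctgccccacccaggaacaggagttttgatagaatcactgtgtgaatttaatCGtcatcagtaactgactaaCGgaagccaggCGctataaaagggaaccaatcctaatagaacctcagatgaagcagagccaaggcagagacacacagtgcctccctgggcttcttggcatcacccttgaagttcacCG
Samd7: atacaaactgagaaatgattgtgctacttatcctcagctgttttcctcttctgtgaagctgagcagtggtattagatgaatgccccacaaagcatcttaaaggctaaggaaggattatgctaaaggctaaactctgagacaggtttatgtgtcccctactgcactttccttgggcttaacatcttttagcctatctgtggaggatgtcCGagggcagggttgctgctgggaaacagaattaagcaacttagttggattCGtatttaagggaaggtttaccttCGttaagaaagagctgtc
Meioc: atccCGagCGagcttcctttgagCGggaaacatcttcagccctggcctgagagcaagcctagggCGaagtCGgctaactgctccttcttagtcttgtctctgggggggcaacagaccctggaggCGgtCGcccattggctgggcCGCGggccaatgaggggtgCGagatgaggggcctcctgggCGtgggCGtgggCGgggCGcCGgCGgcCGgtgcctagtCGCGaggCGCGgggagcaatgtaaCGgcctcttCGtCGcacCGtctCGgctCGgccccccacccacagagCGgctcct
The windows of Zscan4c and Samd7 held 4 and 3 CG dinucleotides, at 0.242 and 0.22 of the number their base composition predicts. The window of Meioc held 28, at 0.805 of that number, and its start site lies 1869 bases from the 5′ end of the gene in the annotation used for the coordinates below. The median over the 11875 tested genes with such a window was 0.745. It was 0.289 over the 379 genes called higher that had a window and 0.618 over the 65 called lower. Only 46.7% of the genes called higher had a window, against 62.2% of all genes tested and 65.7% of those called lower. No test of promoters between groups of genes was made, and the values are a description of letters.

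The 6 libraries held between 6852276 and 12216613 gene reads. Libraries are named a, b and c within a group by depth, with a the deepest, since the columns carried no replicate number. The group was the main axis of variation, with 48.3% of the variance of the 6 libraries, but library a of dTAG mESC stood apart on the second axis, which took 22.2%. Its correlation with the other dTAG libraries was 0.954 and 0.957 across genes, where those 2 reached 0.971 with each other. Among the DMSO libraries, b held the most 2CLC marker transcripts. The results that rest on library a are given without it where they moved.

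The transcript of the targeted gene cannot show the loss of EHMT2, since the degron acts on the protein. Ehmt2 was at 112.5, 100 and 136.8 normalized counts in the DMSO libraries a, b and c and at 45.89, 87.6 and 169.2 in the dTAG libraries. The groups overlapped, with a log2 fold change of -0.39 (SE 0.42, limma with Benjamini-Hochberg adjustment, adjusted p = 0.698). The transcript of Ehmt1 was at 502.4 to 544.6 in DMSO and at 444.5 to 603.4 in dTAG (log2 fold change -0.05, SE 0.14, adjusted p = 0.890). A normalized count here is a read count divided by the library's size factor, and fold changes are on the log2(normalized count + 1) scale, which understates the change of low genes.

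The GFP-negative libraries held the transcripts of mESCs and a low level of those of 2CLCs. The summed level of 8 mESC markers was 53964 to 63381 normalized counts in DMSO and 48973 to 52060 in dTAG, and none of the 8 was called. Pou5f1 had a log2 fold change of -0.35 (adjusted p = 0.123), Nanog of 0.29 (adjusted p = 0.347) and Sox2 of -0.15 (adjusted p = 0.739) in the limma fit. The sum of 11 2CLC markers was 466.24, 1614.3 and 423.26 in DMSO libraries a, b and c and 9125.3, 15520 and 9135.6 in dTAG, against 111960 to 180200 in DMSO 2CLCs. The summed markers of the feeder fibroblasts were higher too, with a sum over 10 genes of 348.81, 480.68 and 489.53 in DMSO and 736.24, 868.97 and 938.66 in dTAG. The groups overlapped for 3 of the 10. Of these, Dcn and Lum had at most 2.138 normalized counts in any of the 6 libraries. Twist1 was at 23.51 to 55.57 in DMSO and 35.98 to 42.01 in dTAG. None of the 8 feeder markers tested was called, and no marker of any list was at 0 in all 6 libraries. The sum of 7 trophoblast markers went from 1051.2 to 1129.8 in DMSO down to 632.41 to 856.78 in dTAG. Most of that sum was 1 gene, Tfap2c, at 906.6 to 980.1 in DMSO and 579.3 to 793.8 in dTAG. The sum of 6 primitive endoderm markers was 155.88 to 197.27 in DMSO and 179.44 to 224.48 in dTAG. In bulk RNA, more cells of a type and more RNA per cell cannot be told apart, and the part of the feeder signal in the results that follow was not tested.

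**Figure D1:**
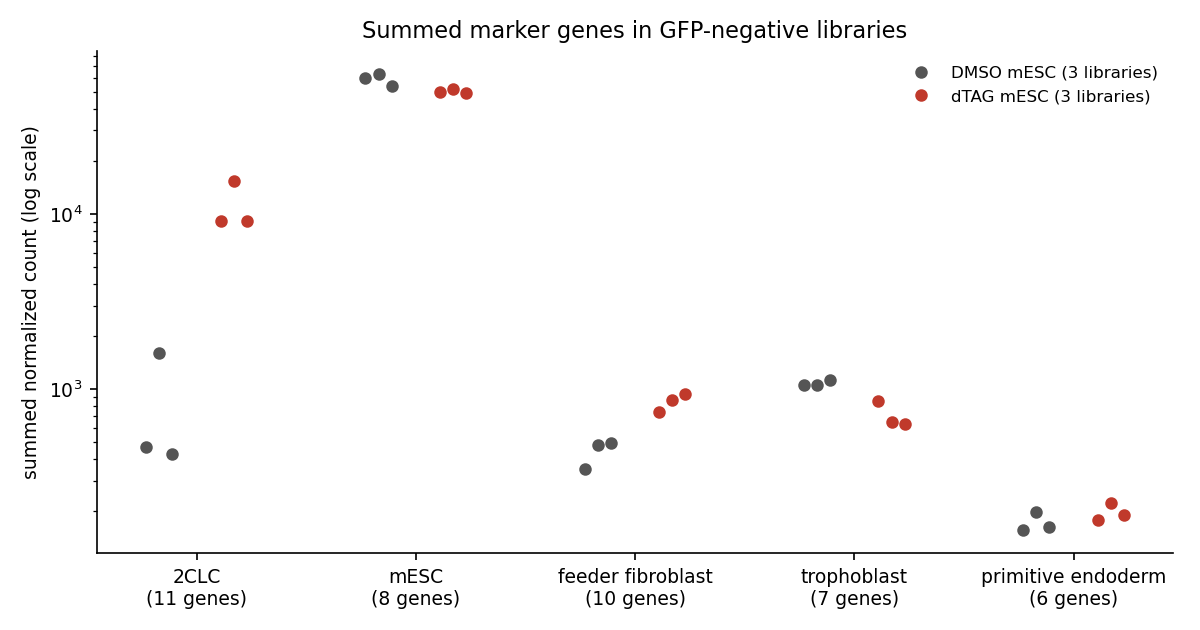
Summed normalized counts of 5 marker lists (log axis) in each GFP-negative library, DMSO in grey and dTAG in red. The 3 dTAG libraries lie above the 3 DMSO libraries for the 2CLC and feeder fibroblast lists and below them for the mESC and trophoblast lists, and overlap them for primitive endoderm.

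The transcriptional response of the GFP-negative cells was mainly upward. Of 19091 genes tested, 811 (4.25%) were called higher and 99 (0.519%) lower in dTAG mESCs, a call being an adjusted p under 0.05 in limma with a fold change of at least 2 in either direction. Genes called higher made up 89.12% of the calls, while the log2 fold change lay above 0 for 9993 of the 19091 genes, with a median of 0.02. The 3 dTAG libraries lay wholly above or below the 3 DMSO libraries for 23.1% of all genes tested, which is the background for every count of groups that did not overlap. Without dTAG library a, 771 genes were called higher and 70 lower. Without 1 library at a time the higher calls ranged from 653 to 833 and the lower calls from 28 (without DMSO library a) and 51 (without DMSO library c) to 90, so the number of genes called lower depends on single libraries.

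**Figure D2:**
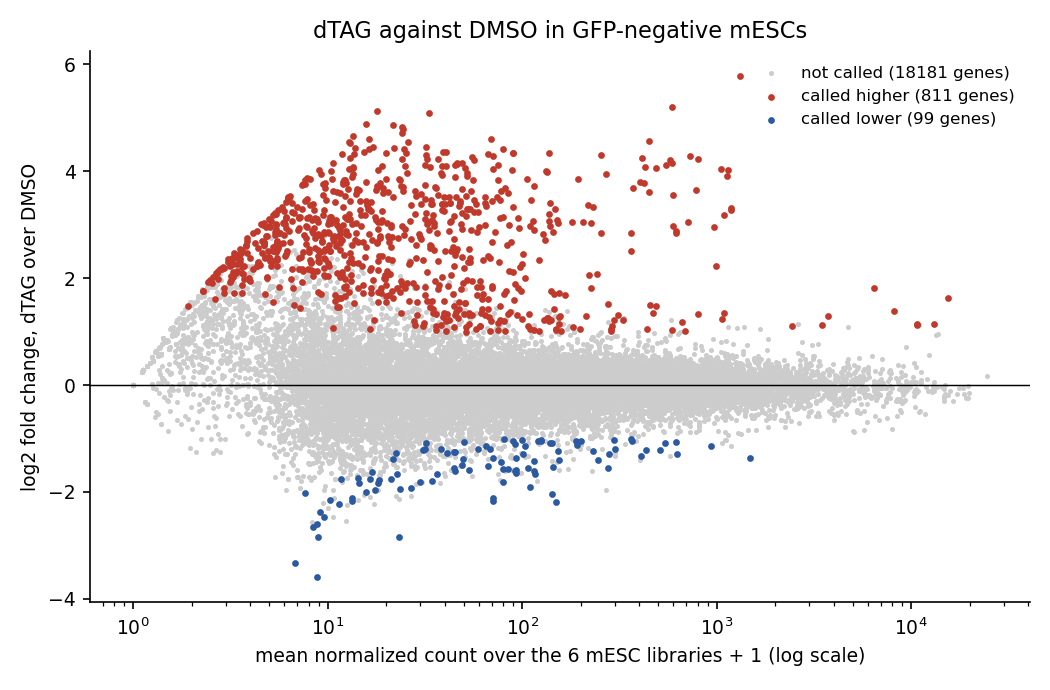
Log2 fold change of dTAG over DMSO against the mean normalized count over the 6 mESC libraries plus 1 (log axis), 1 point per gene. The 811 genes called higher (red) reach a log2 fold change above 5, and the 99 called lower (blue) lie for the most part between -1 and -2.5.

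Genes of the 2-cell embryo made up the strongest response. Of 46 such genes listed, 45 were tested, 39 were called higher and none lower, against 4.25% of all genes, and the median log2 fold change was 3.64, or 3.46 with the 3 genes that had no DMSO read set at their bound. The list was chosen with earlier results of these data known. Usp17lb, a deubiquitinase gene of a multicopy family on chromosome 7 (104840257 to 104842603, minus strand), changed most among the genes that averaged at least 50 normalized counts. It was at 34.25, 101 and 24.58 normalized counts in the DMSO libraries and at 2043, 3508 and 2158 in the dTAG libraries, a log2 fold change of 5.79 (SE 0.40, limma, adjusted p = 3.322e-06, in a fit without the dTAG 2CLC libraries, whose counts were not solved). Its neighbour Usp17la rose from 18.17, 61.13 and 22.45 to 1003, 1481 and 949.7 (log2 fold change 5.21, SE 0.33, limma, adjusted p = 4.916e-07). In both genes DMSO library b was the highest of its group, and the groups were far from overlapping.

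Zscan4c, which codes for a zinc-finger protein of telomere maintenance in mESCs, was at 132.8, 507.5 and 125.1 normalized counts in DMSO and at 1566, 2746 and 1488 in dTAG (log2 fold change 3.18, SE 0.44, limma, adjusted p = 6.18e-04). Zscan4d rose by 4.03 on the log2 scale (limma, adjusted p = 1.04e-04, with fewer libraries in the fit for both Zscan4 genes because not every 2CLC library had a solved count). Zfp352, a zinc-finger gene used as an early marker of the state, went from 1.398, 4.631 and 2.138 to 54.79, 103.2 and 63.02 (log2 fold change 4.37, SE 0.29, limma, adjusted p = 8.797e-07). Sp110, a nuclear body protein, rose from 3.495, 3.705 and 3.207 to 51.37, 94.64 and 66.34 (log2 fold change 3.96, SE 0.21, limma, adjusted p = 1.96e-07). Spopfm2, of the speckle-type POZ family, went from a single read's worth in 1 DMSO library to between 18.8 and 31.5 normalized counts in dTAG (log2 fold change 4.44, SE 0.28, limma, adjusted p = 4.916e-07). Reads of the Zscan4, Usp17l, Tdpoz, Spopfm and Tcstv copies can be split between near-identical genes, so single copies are uncertain.

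The 6 listed 2-cell genes tested without a call were Obox1 and Obox2, at 0 reads in all 6 mESC libraries, Obox3 and Obox6, Usp26 and Zfp951. Obox6 was at 5.592, 13.89 and 0 in DMSO and at 33.56, 16.43 and 13.27 in dTAG (adjusted p = 0.124 in the limma fit). Obox3 stayed at 0 to 2.211 normalized counts in the 6 libraries while its authors' mean in dTAG 2CLCs was 115.89. The Obox genes are homeobox genes of the early embryo, and in these libraries Obox1, Obox2 and Obox3 were at or near 0. Pseudogenes of the family, outside the list, were called higher in dTAG mESCs, namely Obox3-ps5 and many Obox4 pseudogenes.

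Among 10 activators of the state, 3 (30%) were called higher, against 4.25% of all genes, and none lower. The 3 were Zscan4c, Zscan4d and Duxf3, which are also in the list of 2-cell genes and were counted there. Duxf3, the mouse Dux gene, was at 3.495, 9.262 and 2.138 normalized counts in DMSO and at 13.7, 45.36 and 30.96 in dTAG (log2 fold change 2.41, SE 0.48, limma, adjusted p = 0.00558). The call was lost when only the 6 GFP-negative libraries entered the fit (adjusted p = 0.0837 by limma). Dppa2, which acts upstream of Dux, was at 310.4, 620.5 and 379.4 and at 1027, 809.5 and 642.4, and Nelfa, another upstream factor, at 352.3 to 444.6 and 624.7 to 793.1. Both were below the fold required for a call (log2 fold change 0.95 and 0.82, adjusted p = 0.0208 and 0.00958 by limma). Dppa4 overlapped between the groups (487.9 to 541.9 in DMSO, 506 to 826 in dTAG). Of 25 repressors of the 2-cell-like state, none was called in either direction, and their median log2 fold change was 0.06. Kdm1a, a histone demethylase among them, was at 1667 to 1807 in DMSO and 1255 to 1374 in dTAG (log2 fold change -0.43, adjusted p = 0.0422 by limma), which was below the fold of a call.

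**Figure D3:**
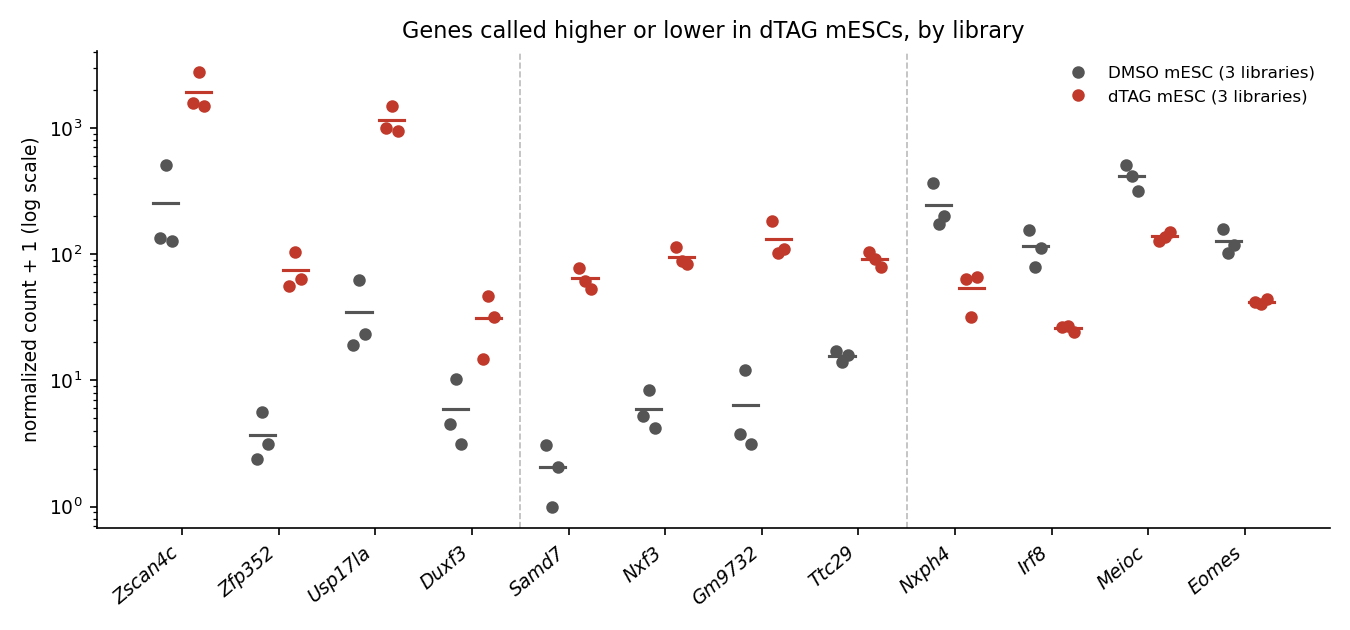
Normalized count plus 1 (log axis) in each of the 3 DMSO (grey) and 3 dTAG (red) mESC libraries for 12 genes, with horizontal bars at the group means. The groups of 4 genes, separated by dashed lines, are genes of the 2-cell-like state, genes at 50% or more of their 2CLC level, and genes called lower, and the 2 treatments do not overlap in any of the 12.

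The level of the genes called higher relative to the GFP-positive cells of the same treatment divided them into distinct sets. The mean in dTAG mESCs was under 10% of the mean in dTAG 2CLCs for 498 of the 811 genes, 10 to 50% for 130 genes and at least 50% for 183 genes. Within the first set the median was 3.37%, with 319 genes between 2 and 5%, 78 below 2% and 101 between 5 and 10%. All 498 genes of that set had a DMSO 2CLC mean of at least 2 times the DMSO mESC mean, as did 54.6% of the 183 genes at or above 50% and 18.0% of all genes tested. For the 498 this is largely built in by the selection. A gene called higher, yet under 10% of its dTAG 2CLC mean, has a dTAG 2CLC mean far above its DMSO mESC mean. Zfp352 reached 1.05% of its dTAG 2CLC mean, Zscan4c 3.67%, Usp17lb 5.00% and Duxf3 11.1%. These shares rest on the authors' means. A low share can stand for a low level in every cell or for a few cells at a high level. Such cells could include 2CLCs left by the sort, and these cases cannot be told apart here.

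**Figure D4:**
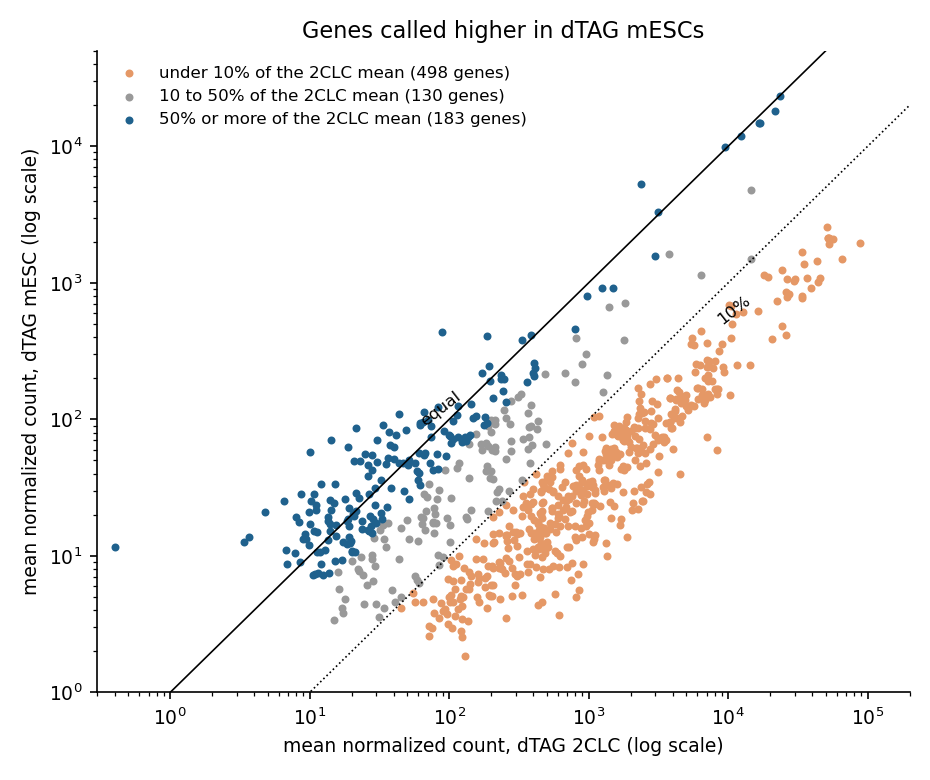
Mean normalized count in dTAG mESCs against that in dTAG 2CLCs for the genes called higher in dTAG mESCs (both axes logarithmic), with lines for equal levels and for 10%. The 498 genes under 10% (orange) form a band below the dotted line with a median of 3.37%, and the 183 genes at 50% or more (blue) lie around the line of equal levels.

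The 183 genes at 50% or more of the 2CLC level differed in make-up from the set under 10%. They were protein coding in 78.1% of cases, against 49.0% in the set under 10% and 74.8% of all genes tested. Of the 183, 14.2% were on the X chromosome, against 0.602% and 3.68%. The 130 genes at 10 to 50% were close to them in both, with 76.9% protein coding and 18.5% on the X chromosome. Of the 10 genes with the largest rise among those averaging at least 50 normalized counts, only Gm9732 belonged to the set at 50% or more. This predicted gene on chromosome 14 was at 2.796, 11.11 and 2.138 normalized counts in DMSO and 180.8, 100.9 and 109.5 in dTAG (log2 fold change 4.597, SE 0.45, limma, adjusted p = 1.361e-05). The others named in this paragraph were chosen after their values were seen. Samd7, known as a Polycomb-associated protein of photoreceptors, went from 2.097, 0 and 1.069 to 77.39, 60.23 and 51.96 (log2 fold change 5.09, SE 0.51, limma, adjusted p = 1.685e-05) and had a mean of 18.7 in dTAG 2CLCs. Nxf3, of the family of nuclear RNA export factors, on the X chromosome, went from 4.194, 7.409 and 3.207 to 113, 86.82 and 82.92 (log2 fold change 4.05, SE 0.35, limma, adjusted p = 4.739e-06). Ttc29 and Spag16, both components of the sperm flagellum, rose by 2.54 and 2.62 on the log2 scale (limma, adjusted p = 2.948e-05 and 1.246e-04). Cd3e, a chain of the T cell receptor complex, went from 4.631 to 8.388 in DMSO to 49.28 to 70.54 in dTAG, and was at 3.321 to 19.67 in dTAG 2CLCs. Tph2, which makes serotonin in neurons, was at 0 to 0.926 in DMSO and at 19.9 to 30.5 in dTAG. In each of these 7 genes the 3 dTAG libraries lay above the 3 DMSO libraries. The groups did not overlap for 805 of the 811 genes called higher, so this follows from the call.

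Families of germline genes on the X chromosome were among them, with 33.3% of the Magea, 42.9% of the Xlr and 28.6% of the Rhox genes tested called higher, against 4.25% of all genes. Magea4, a cancer-testis antigen, had no read in the DMSO libraries and was at 19.18, 11.73 and 8.845 normalized counts in dTAG, and no fold is given. It was the 1 gene called of 3 Magea genes tested. Of 7 Xlr genes tested, 3 were called higher and none lower, among them Xlr3c, which went from 12.58, 22.23 and 14.96 to 54.79, 39.89 and 56.39 (log2 fold change 1.57, SE 0.29, limma, adjusted p = 0.0035). Xlr4a lost its call without DMSO library b, dTAG library a or dTAG library c (adjusted p = 0.0741, 0.0714 and 0.0648 by limma). Xlr4c lost its call when any mESC library other than DMSO library a was left out (adjusted p between 0.104 and 0.157 by limma). Of 7 Rhox homeobox genes, Rhox2a and Rhox13 were called higher. Rhox2a had 1.398, 0 and 0 in DMSO and 25.34, 12.51 and 13.27 in dTAG (log2 fold change 3.68, SE 0.58, limma, adjusted p = 9.049e-04). Rhox13 was not called without DMSO library a, c, or dTAG library a or b (adjusted p between 0.0617 and 0.118 by limma). Rhox5, the best known member in mESCs, was at 53.13 to 113.3 and 161.1 to 281.9 (adjusted p = 0.0563 by limma).

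Genes called lower were fewer and had a different make-up. Of the 99, 91.9% were protein coding, none was on the X chromosome, and 3.03% had a DMSO 2CLC mean of at least 2 times the DMSO mESC mean. Nxph4, a secreted ligand of neurexins, was at 363.5, 171.3 and 200.9 normalized counts in DMSO and at 63.01, 30.5 and 65.23 in dTAG (log2 fold change -2.19, SE 0.37, limma, adjusted p = 0.00172). Irf8, an interferon regulatory factor of immune cells, went from 155.2, 78.72 and 111.2 to 25.34, 25.81 and 23.22 (log2 fold change -2.12, SE 0.31, limma, adjusted p = 4.277e-04). Cacna1h, a T-type calcium channel subunit, and Islr2, a neuronal surface protein, fell by 2.16 and 1.90 on the log2 scale (limma, adjusted p = 0.00273 and 0.00419). Cacna1h and Irf8 were called lower in the GFP-positive cells as well (log2 fold change -1.83 and -1.35, limma, adjusted p = 0.0334 and 0.0424). Ppp1r3b, a targeting subunit of glycogen phosphatase, was at 117.6 to 172 in DMSO and 30.13 to 76.29 in dTAG, with a call that ended when the 6 GFP-negative libraries were fitted alone (adjusted p = 0.065 by limma).

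Of the 10 genes with the largest fall among those averaging at least 50 normalized counts, 4 lost their calls when single libraries were left out. Ndufa4l2 (log2 fold change -2.04) and Aldoc (-1.60), both genes of the response to low oxygen, had adjusted p of 0.199 and 0.221 without DMSO library a, and Gm16439 (-1.81) and Misp3 (-1.67) of 0.205 and 0.112 without that library, by limma. Leaving out DMSO library c or dTAG library b ended these 4 calls too (adjusted p between 0.0637 and 0.174 by limma). Leaving out dTAG library a ended the calls of Ndufa4l2, Gm16439 and Misp3 (0.0552, 0.149 and 0.0869), DMSO library b that of Gm16439 (0.054) and dTAG library c that of Aldoc (0.0533). DMSO library a had the highest value of its group in all 4 genes.

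The germ cell gene Meioc, which sustains meiotic prophase, was at 511, 413.1 and 315.3 normalized counts in DMSO and at 126, 136.9 and 148.2 in dTAG (log2 fold change -1.56, SE 0.23, limma, adjusted p = 4.389e-04). Meioc was also called lower in the GFP-positive cells (log2 fold change -1.06, limma, adjusted p = 0.0344). In mESCs it was the 1 member called lower of 42 germ cell and meiosis genes tested, of which none was called higher, and the median of the list was 0.10. Tex19.1 and Sohlh2 were at 798.3 to 1030 and 530.1 to 624.2 in DMSO and at 1430 to 1681 and 838.1 to 1256 in dTAG, under the fold of a call (log2 fold change 0.77 and 0.78). Of 14 subunits of the Polycomb complex PRC1.6, which silences germ cell genes in mESCs, none was called. Mga, its scaffold, was at 2207 to 2651 in DMSO and, in dTAG, at 1162 in library a and at 1861 and 1859 in b and c (log2 fold change -0.56, adjusted p = 0.143 by limma).

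Genes of naive pluripotency were called higher at about the share of all genes, 3.85% against 4.25%, and those of the formative and primed states at 15.8%. Of 26 naive pluripotency genes, Fbxo15, an Oct4 target, was called higher (333.4, 490.9 and 559 normalized counts in DMSO; 1214, 1050 and 1149 in dTAG; log2 fold change 1.33, limma, adjusted p = 0.001) and none lower, with a median of -0.12. Its dTAG mESC mean was 17.8% of that in dTAG 2CLCs. Tfcp2l1 and Fgf4 were at 6806 to 8434 and 3755 to 4415 in DMSO and at 4892 to 5466 and 2594 to 2883 in dTAG, both with a log2 fold change near -0.57, which was not a call. Of 19 formative and primed genes tested, 3 were called higher. Lefty2, a secreted inhibitor of Nodal, went from 1782, 2682 and 1994 to 4953, 6560 and 4366 (log2 fold change 1.30, SE 0.18, limma, adjusted p = 2.864e-04). Lefty1, which lies beside it on chromosome 1, and Sox3 lost their calls without DMSO library a (adjusted p = 0.169 and 0.152 by limma), without DMSO library c (0.0944 and 0.14) and without dTAG library b (0.128 and 0.124), and Sox3 also without dTAG library c (0.0585).

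Trophoblast genes were called lower at a share of 17.6%, against 0.519% of all genes. Germ layer regulators were called lower at 3.33% and higher at 6.67%, the latter against 4.25% of all genes. Their median log2 fold change was 0.16, and 17 of the 30 tested lay above 0. Eomes, a T-box factor of trophoblast and of mesendoderm, was at 156.6, 101.9 and 117.6 normalized counts in DMSO and at 41.09, 39.11 and 43.12 in dTAG (log2 fold change -1.56, SE 0.24, limma, adjusted p = 6.959e-04). It was the 1 member called lower of 30 germ layer regulators tested. The 2 called higher, Hoxb2 and Neurog1, were at 9.95 to 20.34 and 6.164 to 14.08 normalized counts in dTAG and lost their calls without DMSO library a (adjusted p = 0.079 and 0.114 by limma) or dTAG library b (0.0772 and 0.112), and Neurog1 also without dTAG library c (0.0515). Of 17 trophoblast genes tested, 3 were called lower (Eomes, Krt8 and Krt18) and none higher, with a median of -0.78. The keratin Krt18 was at 25.86, 29.64 and 43.82 in DMSO and at 7.534, 16.43 and 6.634 in dTAG (log2 fold change -1.67, limma, adjusted p = 0.00921; 0.0562 without DMSO library c). Its partner Krt8 was at 50.94 to 59.85 and 16.43 to 29.85 (log2 fold change -1.27, limma, adjusted p = 0.0104; 0.0532 without dTAG library b). Both keratin calls ended when the 6 GFP-negative libraries were fitted alone (adjusted p = 0.0912 for Krt18 and 0.0748 for Krt8 by limma). Of 18 primitive endoderm genes none was called, although 15 lay above 0 and the median was 0.78. Cubn, the receptor with the largest change among those named, had at most 12.16 normalized counts in any mESC library.

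Genes of chromatin and of imprinting gave 1 call. None of 28 genes of the H3K9 methylation machinery was called, and their median was -0.11. Kdm3b and Cbx5, a demethylase and a heterochromatin protein, had log2 fold changes of -0.49 and -0.47 (adjusted p = 0.0208 and 0.0981 by limma). Of 22 genes of DNA methylation, 1 (4.55%) was called higher, close to the 4.25% of all genes. It was Gadd45g, a stress-response gene linked to demethylation, which went from 27.26, 26.86 and 33.13 to 73.28, 68.05 and 84.03 (log2 fold change 1.34, limma, adjusted p = 0.00104). Dnmt3a, a de novo methyltransferase, was at 889.8 to 1426 in DMSO and 1717 to 1858 in dTAG (log2 fold change 0.75, adjusted p = 0.0113 by limma), which was below the fold of a call. Of 38 imprinted genes tested none was called in either direction. Cdkn1c, a growth-limiting gene on the edge of the call, was at 111.1, 156.5 and 102.6 and at 282.9, 248.7 and 200.1 (log2 fold change 0.99, limma, adjusted p = 0.00704), and it was called higher by edgeR (log2 fold change 1.01). Ndn had a log2 fold change of 0.85 and Phlda2 of -0.81. None of 25 clustered protocadherins tested was called (median 0.37).

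Interferon response genes and p53 targets were called higher at 3.12% and 3.57%, against 4.25% of all genes, and interferon response and glycolysis genes lower at 3.12% and 9.09%, against 0.519%. Of 32 interferon response genes, Gbp2 was called higher and Psmb9 lower, both at under 20 normalized counts in every mESC library and both lost without DMSO library a (adjusted p = 0.126 and 0.131 by limma), DMSO library c (0.093 and 0.112) or dTAG library a (0.116 and 0.144). Gbp2 was also not called without dTAG library c (0.0645), and Psmb9 without DMSO library b (0.109) or dTAG library b (0.0892). Of 28 p53 targets, Plk2, a polo-like kinase, was called higher, from 80.39, 106.5 and 82.3 to 207.5, 244.8 and 196.8 (log2 fold change 1.27, limma, adjusted p = 0.00159), and the median of the list was -0.02. Of 22 glycolysis genes tested, 1 lay above 0, against 9993 of the 19091 genes tested, and the median was -0.42. The 2 called lower were Aldoc, described above, and Eno2, which was not called without DMSO library a (adjusted p = 0.175 by limma), DMSO library c (0.118) or dTAG library c (0.127). Rpl10l, the testis copy of a ribosomal protein, was at 271.2, 446.4 and 339.9 in DMSO and at 1506, 1793 and 1562 in dTAG (log2 fold change 2.22, SE 0.16, limma, adjusted p = 1.86e-06). The X-linked gene Rpl10 was at 298.2 to 427.1 and 489.7 to 577.2 without a call. Rpl39l was the 1 other of 84 ribosomal protein genes called higher, and leaving out any mESC library but DMSO library b ended that call (adjusted p between 0.0572 and 0.129 by limma).

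Of 31 transcripts of the mitochondrial genome tested, 4 (12.9%) were called higher in dTAG mESCs, against 4.25% of all genes. The log2 fold change lay above 0 for all 31, with a median of 0.96, and the groups did not overlap for 16 of them. The complex I subunit mt-Nd1 was at 8350, 8915 and 5512 normalized counts in DMSO and at 30000, 20000 and 20260 in dTAG (log2 fold change 1.63, SE 0.27, limma, adjusted p = 0.00153). mt-Nd2 and mt-Atp6, subunits of complex I and of the ATP synthase, rose by 1.38 and 1.14 on the log2 scale (limma, adjusted p = 0.006 and 0.00878). mt-Co2 was called as well, but not without DMSO library c or dTAG library c (adjusted p = 0.0656 and 0.0516 by limma). The ribosomal RNA mt-Rnr2 overlapped between the groups, at 12000, 2149 and 3421 in DMSO and 3907, 4894 and 5395 in dTAG.

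Of 23 feeder fibroblast genes tested, 1 (4.35%) was called higher, against 4.25% of all genes, and none lower. The median, however, was 1.04 and 20 lay above 0. Fbn1, a microfibril protein, was at 20.27, 25.01 and 34.2 normalized counts in DMSO and at 98.62, 95.42 and 89.55 in dTAG (log2 fold change 1.83, SE 0.28, limma, adjusted p = 6.749e-04). Col1a1 and Col1a2, the chains of type I collagen, had log2 fold changes of 1.38 and 1.25 (adjusted p = 0.0563 and 0.0563 by limma), and DESeq2 called 7 of the list. The Y-linked gene Ddx3y had no read in the DMSO libraries and was at 14.4, 6.26 and 9.95 in dTAG. Eif2s3y, another Y-linked gene, was at 0.699, 0 and 0 in DMSO and at 0, 1.564 and 5.528 in dTAG. In the GFP-positive cells the sum over the 10 feeder markers was 750.89 to 1311.4 in DMSO and 1377 to 2660.9 in dTAG, so the markers moved in the same direction with dTAG in both sorts. Whether feeder RNA contributed to other genes called higher was not tested.

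Repeat families of the 2-cell-like state rose in the GFP-negative cells. Of 937 repeat families tested, 15 (1.6%) were called higher and 0 lower, where edgeR and DESeq2 also called 0 lower, 73 families had an unadjusted p under 0.05 in either direction in limma, and 755 of 937 lay above 0 with a median of 0.24. The 15 became 7 without DMSO library c and 9 without dTAG library b or c. Of the 15, 13 were LTR elements, of 568 LTR families tested, and 2 were LINEs, of 148. MT2_Mm, the LTR that drives MERVL, was at 710.2, 1176 and 640.2 normalized counts in DMSO and at 11340, 14050 and 7873 in dTAG (log2 fold change 3.73, SE 0.39, limma on the 6 mESC libraries, adjusted p = 1.423e-18, with the spread of the family taken from the trend over all families). The dTAG mESC mean was 2.42% of that in dTAG 2CLCs. For MERVL-int, the internal part of the element, the dTAG mESC libraries could not be separated, and the authors' mean went from 6890.8 to 78865, a ratio of 11.4 with no test. The reporter used in the sort carries a MERVL promoter.

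The other families called higher were at various distances from their 2CLC level. RLTR6B_Mm, an endogenous retrovirus LTR of the ERV1 group, went from 137, 225.1 and 114.4 to 1336, 1255 and 707.6 (log2 fold change 2.79, SE 0.39, limma, adjusted p = 4.69e-10). ERVB4_2-LTR_MM and X7C_LINE rose by 2.78 and 2.57 on the log2 scale, and LTR86A2 by 2.43, each to under 10% of its dTAG 2CLC mean. RLTR10D2, an ERVK family LTR, reached 33.6% of that mean and MURVY-int 76.4%, the latter at 11.18, 21.3 and 11.76 in DMSO and 41.09, 89.16 and 58.6 in dTAG. The LINE family L1Md_A, which includes young and active elements, was at 3419, 4422 and 2802 and at 5453, 14370 and 9244 (log2 fold change 1.36, SE 0.38, limma on fewer libraries, adjusted p = 0.03), with dTAG library a the lowest of its group. L1Md_T, another young LINE family, went from an authors' mean of 9023.5 to 19835, with no test. IAPEz-int, an ERVK family held silent by H3K9 trimethylation, was at 12150, 9993 and 9671 in DMSO and 5586, 8882 and 8110 in dTAG (log2 fold change -0.51, limma, adjusted p = 0.9996), and the satellite GSAT_MM had at most 3.317 normalized counts in any mESC library.

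**Figure D5:**
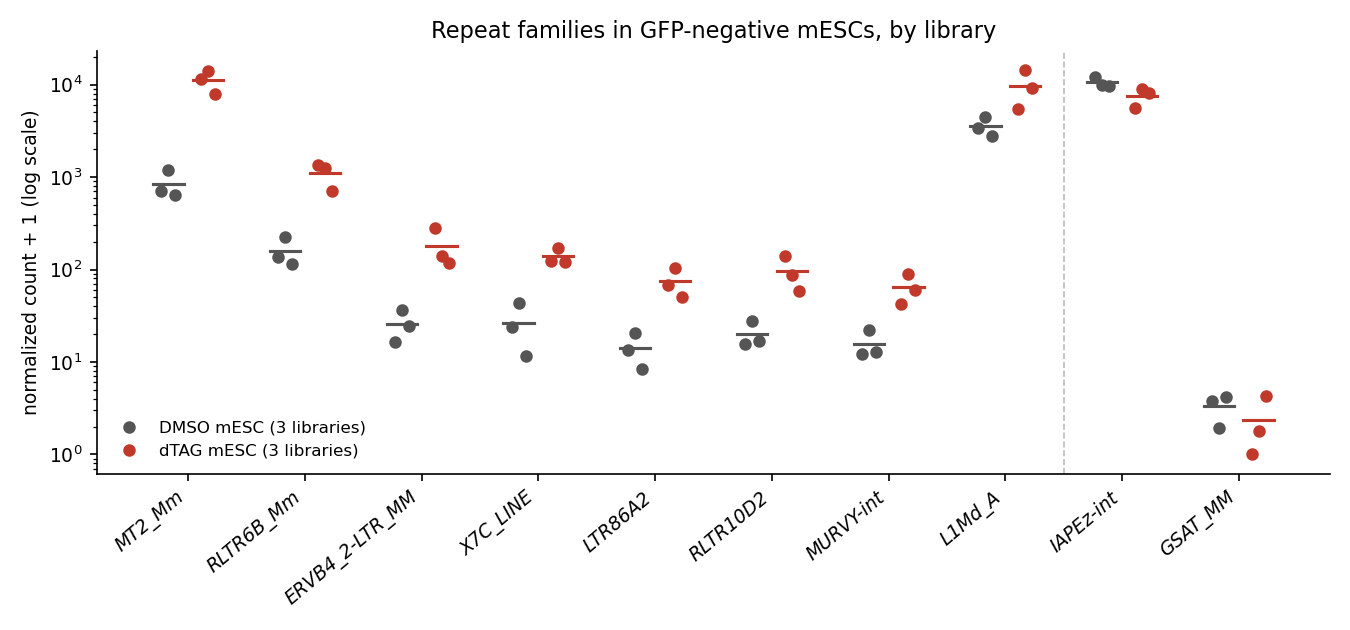
Normalized count plus 1 (log axis) of 10 repeat families in each DMSO (grey) and dTAG (red) mESC library, with bars at the group means. The 8 families left of the dashed line were called higher and their groups do not overlap, from MT2_Mm to L1Md_A, while IAPEz-int and GSAT_MM on the right were not called.

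The effect of dTAG was compared between the GFP-negative and GFP-positive cells with an interaction term in the same limma fit, over 19078 genes. The log2 effect was lower in 2CLCs than in mESCs for 183 genes (0.959%) and higher for 15 (0.0786%). These counts depend on single libraries. The 183 became 46, 68, 88, 97, 99 and 107 without dTAG 2CLC library c, DMSO 2CLC library a, DMSO 2CLC library c, dTAG 2CLC library a, dTAG mESC library b and DMSO mESC library c, and 300 without DMSO mESC library b. The 15 became 3 without library c of either group of 2CLCs, and 6 and 7 without DMSO mESC libraries a and c. Of the 811 genes called higher in mESCs, 180 were among the 183, made up of 154 of the 498 genes under 10% of their 2CLC level, 20 of the 130 genes at 10 to 50% and 6 of the 183 at 50% or more. The mESC effect enters the difference with a minus sign, so this overlap is in part built into the term. In the GFP-positive cells 213 genes (1.12%) were called higher and 40 (0.209%) lower, and 127 of the 811 were called higher there too. Duxf3 had a difference of -3.40 (adjusted p = 0.0265 by limma) and Rpl10l of -1.84 (adjusted p = 0.00244 by limma). For Eomes the effect in 2CLCs was higher than in mESCs by 1.89 (SE 0.34, limma, adjusted p = 0.0156), a call that ended without DMSO 2CLC library c (adjusted p = 0.0516 by limma) or dTAG 2CLC library c (0.0678). Among repeats 1 of 932 families (0.107%), RLTR6B_Mm, differed (-2.52, SE 0.55, limma, adjusted p = 0.0048), which edgeR did not call and which limma did not call without DMSO mESC library c, DMSO 2CLC library c or dTAG 2CLC library c.

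Many of the genes called higher lay beside each other. Runs of at least 5 such genes, each within 1 Mb of the next, were sought with GENCODE coordinates on GRCm38. A run was kept only if more than 50% of the tested genes from its first to its last were called. The 15 runs kept held 213 of the 811 genes (26.3%). The high share of called genes within each run therefore follows in part from this rule. The run with the most was on chromosome 12 from 87480108 to 88324026, where 35 of 54 tested genes were called, followed by chromosome 5 from 93390602 to 95746617 with 34 of 39. The Tdpoz and Spopfm cluster on chromosome 3 (93014205 to 94332540) had 26 of 36 and the Zscan4 cluster on chromosome 7 (10794242 to 11614112) 14 of 19. The median gene of these 4 runs was at between 1.443% and 3.981% of its dTAG 2CLC mean. The Fthl17 run of ferritin-like genes on the X chromosome (8081453 to 9268085) differed in that, with 9 of 17 genes called and a median of 19.8%. Only 2 of the 15 runs held a gene at 50% or more of its 2CLC level. Since the runs consist largely of copies of 1 gene family, their members share reads and are not independent.

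Bulk, unsorted cultures of the time course gave authors' means at 24 h and 7 d of dTAG or DMSO for most of these genes, and no test was made on them. By their labels and the study's methods they came from clones with the EHMT2 degron, not from the MERVL reporter line of the sorted samples. The line, the sort and the time thus all differ from the sorted comparison. Of the genes called higher in sorted mESCs, 64.5% of 698 had a ratio of at least 2 at 24 h and 78.4% of 718 at 7 d, against 5.49% and 7.19% of all genes tested. The median ratio was 6.09 at 24 h and 15.7 at 7 d for the set under 10% of the 2CLC level, and 1.90 and 3.13 for the set at 50% or more. Samd7 had ratios of 6.15 and 44.6, Nxf3 of 8.77 and 25.1 and Ttc29 of 3.29 and 5.09. The genes called lower behaved differently over time, with a median ratio of 0.971 at 24 h and 0.471 at 7 d. A ratio of at most 0.5 was seen for 7.14% of 98 such genes at 24 h and 53.1% at 7 d, against 4.04% and 5.87% of all genes tested. In the other direction, 3 of the 98 (3.06%) had a ratio of at least 2 at 7 d, namely the keratin genes Krt18 (2.72) and Krt8 (2.99) and the pseudogene Krt8-ps (3.17), chosen for naming after their values were seen.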

How the data were processed

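RNA was sequenced from GFP-negative and GFP-positive cells after 72 h of DMSO or dTAG, with 3 libraries per group. Per the labels and the study's methods, reads were trimmed with Trim Galore 0.6.7, aligned to mm10 with STAR 2.7.10, a read that fits several places being put at 1 of them at random, and counted per gene (GENCODE) and per repeat family with TEcounts. The authors deposited normalized counts (a signal made by dividing counts by DESeq2 1.34.0 size factors in R 4.1.0) as the mean of each group, not per library. The deposited columns of fold changes and p-values hold the authors' own comparisons and were not used. For the bulk time course the authors' mean normalized count of each group was used. Whether counting used strand is not given in the sources used here.

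Each group mean is a sum of 3 whole read counts, each times the step of its library, and the means carry enough digits to solve for the reads. This gave whole reads per library for 99.9485% of DMSO mESC and 99.9222% of dTAG mESC gene means above 0, and 99.5392% and 99.1788% of repeat means. In tables of another experiment whose reads per library are known, 90.6856 to 96.5201% were solved and at least 99.9923% of those were right. A feature with no single solution was left out of the test (28 genes and 9 repeat families in mESC).

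Features with at least 10 reads, scaled to the median library, in at least 3 of the 12 sorted libraries were kept. The value log2(normalized count + 1) was fitted with limma 3.58.1 (trend) in R 4.3.3 over all 12 libraries and 4 groups, and a call needed a Benjamini-Hochberg adjusted p under 0.05 and an absolute log2 fold change of at least 1. In the fit of repeat families the prior degrees of freedom were infinite, so every family took its spread from the trend and not from its own libraries. edgeR 4.0.16 and DESeq2 1.42.0 on the solved reads, other pseudocounts and filters, TMM scaling, the 6 GFP-negative libraries alone and leaving out each library were alternatives. The fit was tested on simulated data. The counts limit the precision of low genes, and intervals were not computed for single libraries.

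Named genes were Ehmt2, Ehmt1, the 10 called genes with the largest change in each direction with a mean of at least 50 normalized counts, up to 4 members of each list with the smallest adjusted p, 5 repeat families and a fixed set of others, and 5 differences in each direction. Other genes are said to be chosen after their values were seen, or are further members of the lists. The members and lists were chosen with earlier results of these data known. Promoter windows came from RefSeq (GRCm38.p6) and coordinates from GENCODE on GRCm38, with 19065 of 19091 genes matched. A gene that the rule for named genes selects is not reported here.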

Additional observations from a re-analysis of the deposited data

Results flagged for a closer look

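The effect of dTAG differed between the GFP-positive and the GFP-negative cells for the features given here, by the interaction term of limma over all features tested, as 2CLC minus mESC on the log2 scale. Slc19a3, a thiamine transporter, differed by 3.06 (SE 0.43, limma, adjusted p = 0.00521), with 17.1 to 31.46 normalized counts in DMSO mESCs and 15.64 to 30.82 in dTAG mESCs, which overlap, and 49.31 to 88.01 and 494.9 to 601.7 in the 2CLCs. Eomes differed by 1.89 (limma, adjusted p = 0.0156; 0.0516 without DMSO 2CLC library c and 0.0678 without dTAG 2CLC library c), since it was lower in dTAG mESCs and had a log2 fold change of 0.32 in 2CLCs. Gm12623 differed by 2.31, Gm9045 by 1.95 and 4933440M02Rik by 1.85 (limma, adjusted p = 0.0242, 0.0261 and 0.0162), each called higher in 2CLCs and not in mESCs. These 3 calls ended without DMSO 2CLC library c (adjusted p = 0.0763, 0.0694 and 0.0639 by limma), and the first 2 also without DMSO mESC library a (0.0521 and 0.0508) and c (0.0696 and 0.0588) and dTAG 2CLC library b (0.0669 and 0.0631) and c (0.0858 and 0.077). Gm12623 was also not called without dTAG mESC library b (0.0534) or DMSO 2CLC library a (0.0857), Gm9045 without DMSO 2CLC library b (0.0632) and 4933440M02Rik without dTAG 2CLC library a (0.0568).

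In the other direction, the effect was lower in 2CLCs for Gm8701 (-4.15, limma, adjusted p = 0.00865), Gm8689 (-3.98, adjusted p = 0.00865) and Gm4308 (-3.82, adjusted p = 0.00113), which lie together on chromosome 10 and rose in mESCs from at most 3.705 to between 4.109 and 35.2 normalized counts. It was lower also for Gm11543 (-4.07, limma, adjusted p = 0.0107; 0.0538 without dTAG 2CLC library c) and for Gm50179 (-3.81, limma, adjusted p = 0.0431), whose call ended when any 1 of 11 libraries was left out, all but DMSO mESC library b (adjusted p from 0.054 to 0.153 by limma). These predicted genes were at 191.9 to 4769 normalized counts in DMSO 2CLCs. The repeat family RLTR6B_Mm differed by -2.52 (SE 0.55, limma, adjusted p = 0.0048), with 0 repeat families called without DMSO mESC library c, DMSO 2CLC library c or dTAG 2CLC library c.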

How the results depend on the processing

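No paired analysis was possible because the deposited columns carry no replicate number. Over 136 named results there were 1989 alternative values, of which 1820 kept their side of the threshold, 140 lost a call, 29 gained 1 and no call reversed. The sign changed for 2 values without a call, of Ehmt2 and Ehmt1. edgeR called 760 genes higher and 88 lower in dTAG mESCs, of which 731 and 83 were shared with limma, and DESeq2 called 896 and 170, of which 768 and 98 were shared. The 6 GFP-negative libraries alone gave 596 higher and 67 lower, of which 568 and 56 were shared, and without the filter 720 and 64 were shared. The genes called lower were 58 with a mean of at least 50 normalized counts and 36 at an adjusted p under 0.01, against 99. With 1 library left out, the ranges were 653 to 833 genes higher, 28 to 90 lower, 7 to 17 repeat families higher and 0 to 0 lower, 38 to 40 of the 2-cell genes, 437 to 503 genes under 10% of the 2CLC level and 124 to 186 at 50% or more. For the difference between 2CLCs and mESCs they were 3 (without DMSO 2CLC library c) to 17 genes higher, 46 (without dTAG 2CLC library c) to 300 (without DMSO mESC library b) lower, and 0 to 0 repeat families higher and 0 to 2 lower. Repeat families called higher were 9 with a pseudocount of 5 and 25 with the 6 GFP-negative libraries alone, against 15, and 7 without DMSO mESC library c. Genes lower in the difference were 117 with a pseudocount of 5, against 183, and edgeR called 0 repeat families there, where 11 had an unadjusted p under 0.05 in limma. Genes at 50% or more of the 2CLC level were 61 with a mean of at least 50 normalized counts and 99 at an adjusted p under 0.01, against 183. Feeder markers called higher were 7 with DESeq2. In the cases where a count moved, the cause was not tested, except that the stricter filter and threshold admit fewer genes by construction. Depth limits the low genes: 83 of the 811 genes called higher had no read in the DMSO mESC libraries, and their fold changes depend on the pseudocount.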
